A study of Mus musculus with 2 samples.

Results

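Pericytes and smooth muscle cells are the mural cells of blood vessels, and 10 genes that mark them or their recruitment were followed here in the postnatal mouse heart. The genes were taken by symbol: Pdgfb, Pdgfrb, Notch3, Rgs5, Cspg4, Mcam, Abcc9, Tagln, Cnn1 and Smtn, which are 10 of 55536 annotated genes. All 10 were detected, meaning at least 1 TPM (a relative abundance corrected for transcript length) in both libraries, as were 12838 genes in all. The study sequenced total RNA from heart tissue of 2 female mice of strain B6CASTF1/J at 10 days of age. Each animal gave 1 library, with 300 ng of RNA per library. By the strain name the animals are first-generation hybrids of C57BL/6J and CAST/EiJ, and the labels name no treatment and no second genotype. The labels list both animals as biological replicates under 1 donor record and name The Jackson Laboratory as their source. There was a single group, so the values below describe levels, their order and the difference between 2 hearts. A difference between 2 hearts has no replicate check.

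Mural cells wrap the endothelial tube: pericytes sit on capillaries and smooth muscle cells on arteries, arterioles and veins. Endothelial cells secrete PDGF-B, which acts on the receptor PDGFRB of mural cells and draws them to the growing vessel, and Notch signals from the endothelium act through NOTCH3 to support mural cell maturation. Smooth muscle cells then build a contractile apparatus in which transgelin, calponin and smoothelin bind actin filaments. RNA from heart tissue mixes its cell types. Fewer cells of a type and less RNA per cell therefore cannot be told apart in any level below.

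The libraries held 40403041 expected counts in replicate 1 and 39849597 in replicate 2, of which ERCC spike-in RNA took 0.541% and 0.575%. The tissue label was checked against its defining markers: all 10 cardiomyocyte genes were detected, led by the alpha myosin heavy chain gene Myh6 at 9012 ± 842 TPM (SD, n = 2, as for every ± below), Myl2 at 8357 ± 250 TPM and Actc1 at 6921 ± 265 TPM. All 10 endothelial genes were detected, with Cdh5 at 131 ± 1.47, Egfl7 at 123 ± 10.5 and Pecam1 at 88.0 ± 2.62 TPM. All 10 fibroblast genes were detected as well, with Col3a1 at 721 ± 4.86, Col1a1 at 365 ± 20.7 and Col1a2 at 248 ± 12.1 TPM.

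Sequence is shown for 3 genes in which a choice of exon or start site divides the transcripts, because the shares of these forms are among the results. Abcc9 encodes SUR2, the regulatory subunit of ATP-sensitive potassium channels, and 5 of its 6 annotated transcripts end in either of 2 alternative last coding exons (the short Abcc9-205 stops before both); the upstream choice gives the ending known as SUR2A and the downstream choice that known as SUR2B. The coding parts of both are given 5′ to 3′ on the transcribed (minus) strand of chromosome 6, GRCm38, from the GENCODE M21 transcripts, at chr6:142594008-142594142 for Abcc9-202 and chr6:142590369-142590503 for Abcc9-203. Capitals mark the positions at which they differ.
Abcc9-202, upstream ending: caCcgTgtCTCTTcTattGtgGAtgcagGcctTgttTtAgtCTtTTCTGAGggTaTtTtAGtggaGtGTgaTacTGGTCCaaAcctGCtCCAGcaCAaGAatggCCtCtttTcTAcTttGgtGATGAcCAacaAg
Abcc9-203, downstream ending: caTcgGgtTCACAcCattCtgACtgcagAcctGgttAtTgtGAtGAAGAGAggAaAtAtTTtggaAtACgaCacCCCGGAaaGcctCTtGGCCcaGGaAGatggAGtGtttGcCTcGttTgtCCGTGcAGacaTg
Each stretch holds 135 bases, 45 codons without the stop codon, and 69 of 135 bases (51.1%) were identical between them. Translated, 17 of 45 codons gave the same residue. The end of the related gene Abcc8, which encodes SUR1, matched the downstream ending at 94 of 135 bases (69.6%) and 34 of 45 residues (75.6%), and the upstream ending at 70 bases (51.9%) and 17 residues (37.8%).

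Smtn encodes smoothelin, an actin-binding protein of contractile smooth muscle whose long and short forms start from different promoters. The first 150 coding bases of the internal start (Smtn-201, chr11:3527677-3527826, minus strand) and the 51 coding bases of the first coding exon of the distal start (Smtn-202, chr11:3537323-3537373, minus strand) are given with the start codon in capitals. The transcription start of Smtn-201 lies 11355 bases downstream of that of Smtn-202.
Smtn-201, internal start: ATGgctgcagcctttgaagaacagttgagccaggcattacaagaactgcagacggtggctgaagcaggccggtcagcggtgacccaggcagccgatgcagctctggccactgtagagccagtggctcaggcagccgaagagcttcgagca
Smtn-202, distal start: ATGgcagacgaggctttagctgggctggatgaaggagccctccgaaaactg
Mcam encodes CD146, a cell adhesion molecule of mural and endothelial cells that exists with a long or a short cytoplasmic tail. The 118-base exon that Mcam-201 (648 residues) holds and Mcam-202 (606 residues) lacks is at chr9:44141275-44141392 on the plus strand. Its length is not a multiple of a codon, so the reading frame differs after it. No letter is marked in this exon.
Mcam-201, exon absent from Mcam-202: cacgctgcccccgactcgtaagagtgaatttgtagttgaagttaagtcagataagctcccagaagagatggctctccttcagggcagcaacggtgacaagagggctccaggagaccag

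Levels of the 10 genes spanned 47.2-fold between the highest and the lowest mean. In order they were Rgs5, Abcc9, Smtn, Mcam, Pdgfrb, Tagln, Notch3, Pdgfb, Cspg4 and Cnn1. Their medians were 32.2 and 33.1 TPM in replicates 1 and 2, beside 10.9 TPM in each library over 11731 detected protein-coding genes. Together they summed to 561 TPM and 550.6 TPM, of which Rgs5 alone made up 31.6% and 30.5% and the leading 3 genes 65.6% and 64.8%. All 9 pairs of neighbours in this order had ranges that did not overlap between libraries. The closest were Tagln over Notch3 (1.15-fold), Notch3 over Pdgfb (1.18-fold) and Pdgfrb over Tagln (1.19-fold). With 2 libraries each, non-overlap is a weak criterion. In the second transcript table, whose column headers are those kallisto writes, 8 of 9 pairs in its own order were apart. There Tagln moved below Pdgfb and Notch3, and the ranges of Pdgfb and Notch3 overlapped.

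**Figure D1:**
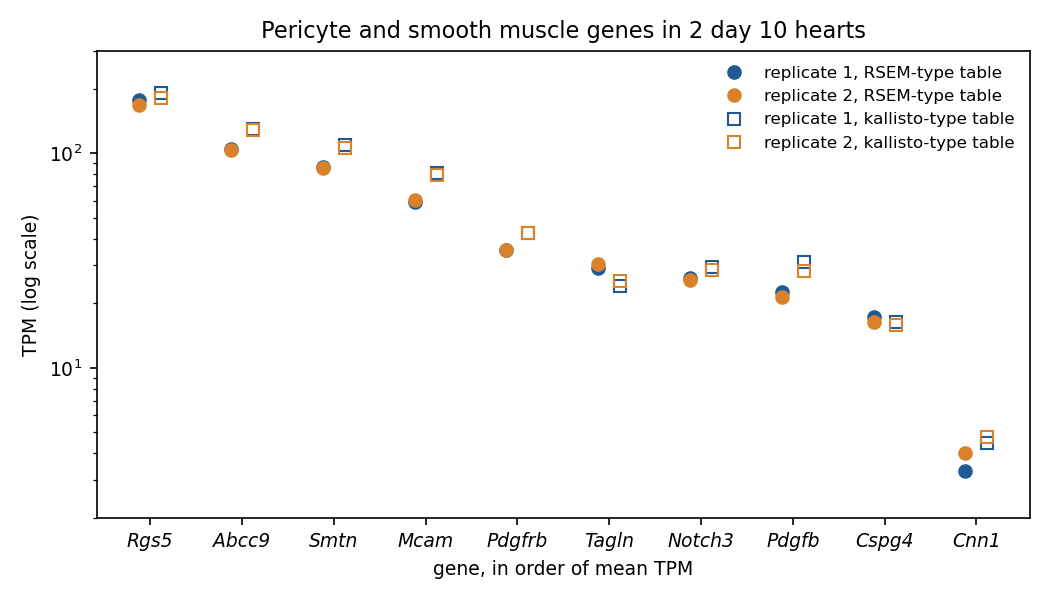
TPM of the 10 genes in each library on a log axis; filled circles are the gene table (RSEM-type headers) and open squares the kallisto-type table summed per gene, blue for replicate 1 and orange for replicate 2. Within a method the 2 hearts sit close together, from Rgs5 at 172 TPM down to Cnn1 at 3.65 TPM, and the open squares lie above the circles for 8 of 10 genes.

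The ligand and its receptor come first. Pdgfb, which encodes the PDGF-B chain (ENSMUSG00000000489.7, chr15:79995874-80014977, minus strand), stood at 22.6 TPM in replicate 1 and 21.4 in replicate 2, a mean of 22.0 ± 0.870. Pdgfrb, its receptor tyrosine kinase on mural cells and some fibroblasts (ENSMUSG00000024620.11, chr18:61045150-61085061, plus strand), stood at 35.3 and 35.6 TPM, a mean of 35.4 ± 0.184. The receptor was therefore above its ligand in both hearts, 1.56-fold and 1.66-fold (ratios between genes here are of TPM + 0.1 within a library). Pdgfrb was also above Pdgfra, the receptor of fibroblasts, by 2.02-fold and 1.95-fold. Pdgfb exceeded Pdgfa, which encodes the A chain, by 1.24-fold and 1.61-fold; Pdgfa itself read 18.2 and 13.3 TPM. Cdh5, an endothelial cadherin, exceeded Pdgfb 5.81-fold and 6.04-fold.

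The other PDGF family genes, Pdgfa, Pdgfc, Pdgfd, Pdgfra and Pdgfrl, were all detected, 5 of 5, and their medians were 5.22 and 6.61 TPM in replicates 1 and 2. Pdgfra led them at 17.8 ± 0.523 TPM, followed by Pdgfa at 15.8 ± 3.50 and Pdgfd, which encodes another PDGFRB ligand, at 5.92 ± 0.983. Pdgfb thus had the higher mean level of the PDGFRB ligand genes Pdgfb and Pdgfd, and its range did not overlap that of Pdgfd.

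Notch3, the Notch receptor of mural cells (ENSMUSG00000038146.8, chr17:32120820-32166852, minus strand), read 26.3 and 25.7 TPM, a mean of 26.0 ± 0.431. It was above Notch1, the receptor gene next to it in level, by 1.21-fold and 1.09-fold, so the order held in both hearts by a small margin. It was above Jag1, which encodes a Notch ligand, by 3.15-fold and 2.98-fold. The remaining Notch pathway genes were all detected, 14 of 14, with medians of 11.9 and 11.5 TPM. Their leading members were Notch1 at 22.7 ± 1.34, Notch4, an endothelial receptor, at 19.1 ± 3.23, and the target gene Hes1 at 18.3 ± 2.05 TPM.

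Rgs5, a regulator of G protein signalling enriched in pericytes (ENSMUSG00000026678.10, chr1:169655501-169695813, plus strand), was the most abundant of the 10, at 177 TPM in replicate 1 and 168 in replicate 2, a mean of 172 ± 6.58. Among detected protein-coding genes 3.20% were at its level or above. It exceeded Pdgfrb by 2.28 ± 0.06 on the log2 scale, and exceeded its relatives Rgs2 (6.34-fold and 6.46-fold) and Rgs4 (22.9-fold and 20.4-fold). Of the 9 other R4-family regulators, 4 were detected. The leading ones were Rgs2 at 26.9 ± 1.39, Rgs3 at 23.7 ± 0.693 and Rgs4 at 7.89 ± 0.346 TPM, and over all 9 the middle gene stood at 0.300 and 0.370 TPM.

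Cspg4, which encodes the NG2 proteoglycan of pericytes and glial precursors (ENSMUSG00000032911.6, chr9:56865033-56899870, plus strand), read 17.2 and 16.4 TPM, a mean of 16.8 ± 0.601. Pdgfrb exceeded it 2.05-fold and 2.17-fold. Because Cspg4 also marks glial precursors, a list of Schwann, neural and oligodendrocyte precursor genes was read beside it: 3 of 10 were detected, their summed level was 22.1 TPM and 18.8 TPM, and Olig1, Olig2 and Th were at 0 in both libraries. Among its genes were Ncam1 at 12.7 ± 1.82 and Mbp at 2.24 ± 0.509 TPM, and their part in the Cspg4 level was not tested. Mcam (ENSMUSG00000032135.15, chr9:44134469-44142727, plus strand) read 59.2 and 60.3 TPM, a mean of 59.8 ± 0.721. The endothelial gene Pecam1 exceeded Mcam 1.45-fold and 1.49-fold, and Mcam is known to be expressed by endothelium too, and the part of endothelial cells in its level was not tested.

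Of 18 other pericyte genes, such as channels, receptors and secreted proteins, all 18 were detected, with medians of 12.3 and 12.1 TPM. Art3, which encodes an ADP-ribosyltransferase family member, led at 149 TPM in replicate 1 and 212 in replicate 2, a mean of 181 ± 44.8. Ednra, the endothelin A receptor, stood at 23.5 ± 0.262 and Ndufa4l2 at 21.8 ± 0.113 TPM. The median of the 10 genes followed here was above that of this list in each library.

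Abcc9 (ENSMUSG00000030249.15, chr6:142587862-142702315, minus strand) read 104 TPM in both libraries, a mean of 104 ± 0.438, and was exceeded only by Rgs5 among the 10. It was above Abcc8, which encodes the related subunit SUR1, by 3.55-fold and 3.44-fold. It was also above both pore subunit genes of the channel, Kcnj8 (5.51-fold and 5.39-fold), the partner in vascular mural cells, and Kcnj11 (3.03-fold and 3.21-fold), the partner in cardiomyocytes. Kcnj11 stood at 33.3 ± 1.51, Abcc8 at 29.7 ± 0.552 and Kcnj8 at 19.0 ± 0.219 TPM. SUR2 is made in cardiomyocytes as well as in mural cells, and all 10 cardiomyocyte markers were detected, at summed levels of 33731 and 35461 TPM; their part in the Abcc9 level was not tested.

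The contractile genes were spread widely. Smtn (ENSMUSG00000020439.17, chr11:3517523-3540612, minus strand) read 86.5 and 85.2 TPM, a mean of 85.9 ± 0.940. Tagln, which encodes transgelin or SM22 alpha (ENSMUSG00000032085.5, chr9:45929619-45936058, minus strand), read 29.1 and 30.6 TPM, a mean of 29.8 ± 1.08. Cnn1, which encodes calponin of differentiated smooth muscle (ENSMUSG00000001349.5, chr9:22099216-22109630, plus strand), was the lowest of the 10 at 3.30 and 4.00 TPM, a mean of 3.65 ± 0.495. Smtn exceeded Tagln 2.97-fold and 2.78-fold, and Tagln exceeded Cnn1 8.58-fold and 7.49-fold.

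Each of these genes was set against a relative of wider expression or another smooth muscle gene. Acta2, smooth muscle alpha-actin, exceeded Tagln 7.22-fold and 7.93-fold in the gene table. Tagln2 exceeded Tagln 2.47-fold and 2.33-fold, and Cnn3 exceeded Cnn1 13.6-fold and 11.2-fold, so in both families the relative of wider expression was the higher. Smtn exceeded the smooth muscle myosin heavy chain gene Myh11 9.12-fold and 7.74-fold. The kallisto-type table put Tagln lower, at 23.9 and 25.3 TPM, and Acta2 higher, at 350 and 401 TPM against 211 and 243. Tagln2, Smtn and Cnn1 also read higher there. In that table Acta2 over Tagln was 14.6-fold and 15.8-fold, and Tagln2 over Tagln 3.81-fold and 3.50-fold. Smtn over Tagln was 4.57-fold and 4.15-fold, and Tagln over Cnn1 5.29-fold and 5.25-fold.

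Of 20 further smooth muscle contractile and cytoskeletal genes 17 were detected, with medians of 19.4 and 21.8 TPM. Fhl2, a LIM-domain protein, led at 618 ± 66.6, then the intermediate filament gene Des at 384 ± 21.2 and Acta2 at 227 ± 23.2 TPM. Fhl2 and Des are known to be expressed by cardiomyocytes too, and the part of those cells in the levels of this list was not tested. Of 11 smooth muscle transcription genes 9 were detected, with medians of 6.49 and 6.38 TPM, led by Srf, the serum response factor, at 48.0 ± 5.86, its coactivator gene Myocd at 44.8 ± 2.17 and Mrtfb at 15.3 ± 0.537 TPM. Myocd is active in cardiomyocytes too.

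Lists for other cell types and other kinds of muscle were read as well. Of 6 epicardial and mesothelial genes 6 were detected, led by Aldh1a2 at 17.2 ± 2.18, Msln at 16.1 ± 0.460 and Upk3b at 11.9 ± 1.48 TPM. Of 8 myeloid and lymphoid genes 6 were detected, led by Lyz2 at 21.2 ± 2.24, C1qa at 11.3 ± 1.56 and Csf1r at 10.7 ± 1.27 TPM. Of 8 skeletal and visceral muscle genes 2 were detected, with Actg2 at 2.06 ± 0.0778, Npnt at 1.82 ± 0.0566 and Tnni2 at 1.17 ± 0.594 TPM as the highest.

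**Figure D2:**
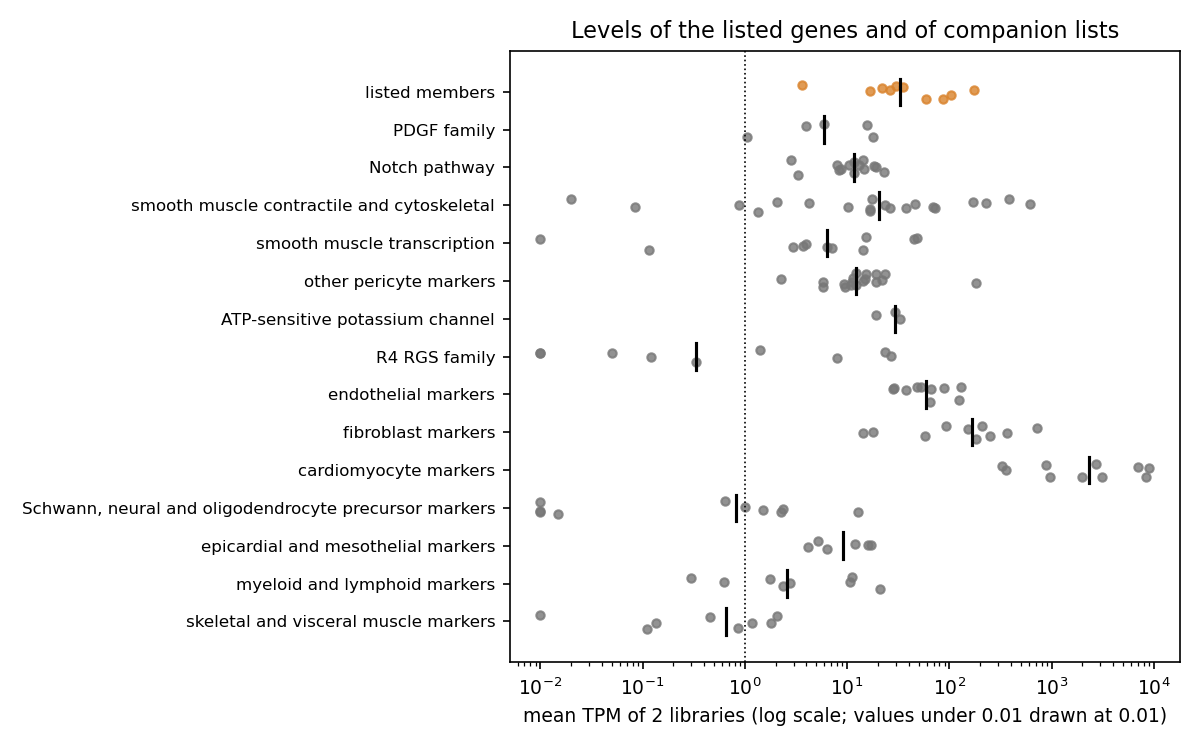
Mean TPM over both libraries of each gene (1 point per gene, log axis, black bars are list medians) for the 10 genes, in orange, and for 14 companion lists, in grey; the dotted line is 1 TPM and values under 0.01 are drawn at 0.01. The 10 genes lie to the right of the dotted line, all below the cardiomyocyte list median of 2339 TPM, and all but Rgs5 (172 TPM) below the fibroblast list median of 166 TPM.

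**Figure D3:**
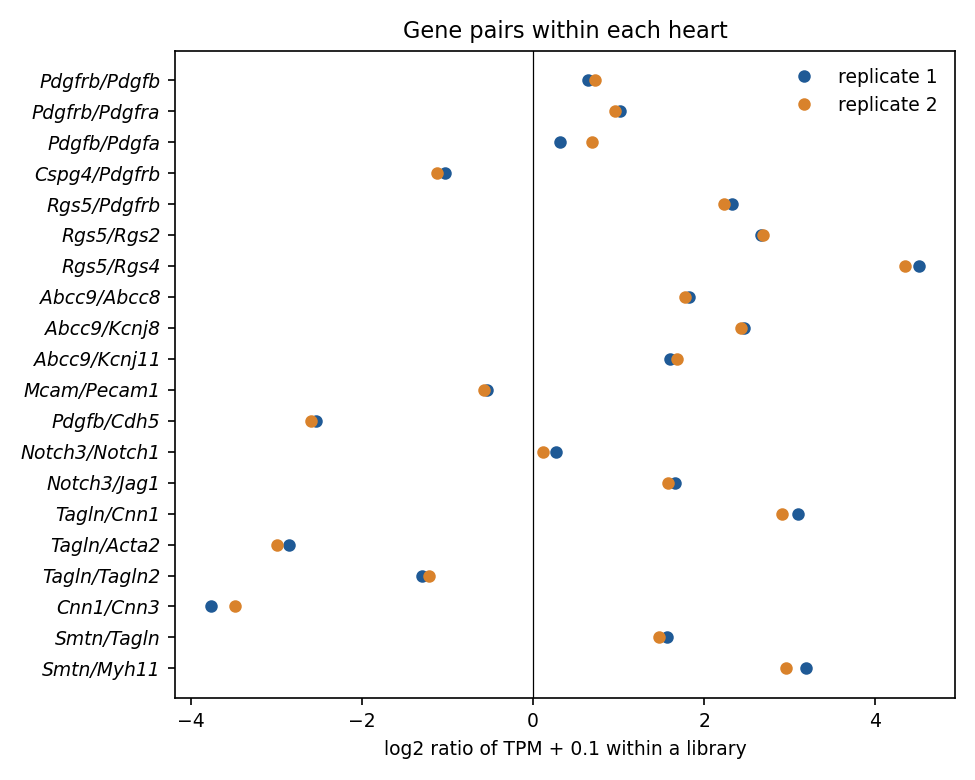
Log2 ratio of TPM + 0.1 for 20 gene pairs within each library, blue for replicate 1 and orange for replicate 2. In 14 pairs the first gene was higher in both hearts and in 6 the second was, and no pair changed sides between hearts.

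The 2 hearts were then compared gene by gene, as the log2 ratio of replicate 2 over replicate 1 of TMM-scaled counts, with a 95% interval for counting error alone. None of the 10 genes differed by 1.5-fold or more, where 2.55% of 12838 detected genes did (193 higher and 135 lower in replicate 2). At that background a count of 0 in 10 says nothing particular about these genes. In 1 of 10, Rgs5, the counting interval left out equal levels, beside 31% of detected genes. Regardless of sign, the log2 ratio had a median of 0.03 among the 10 and 0.10 among detected genes, whose median count of 708 was far below the 4635 of the 10. In replicate 2, 5 genes were lower and 5 higher.

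Rgs5 had 21568 counts in replicate 1 and 20084 in replicate 2, a log2 ratio of -0.06 (interval -0.09 to -0.04), a small difference read from many counts. Abcc9, with 22437 and 21826 counts, was within -0.03 to 0.03 of equal. Tagln had the widest gap of the 10, at 0.11 (interval -0.03 to 0.24), and 47.0% of detected genes were at least as far from equal. Cnn1 rested on 132 and 131 counts, and its interval of -0.33 to 0.39 was the widest. Its TPM nonetheless differed by more than its counts, 3.30 against 4.00. Shares assigned to its transcripts differed between libraries as well: the full-length Cnn1-201 took 38.8% and 26.3% of the gene. Such shares set the length that the counts of a gene are divided by, and their part in the TPM of Cnn1 was not tested. The remaining 6 genes lay between -0.04 and 0.02.

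Scaling moves the direction of such small ratios. With the total of the ERCC spike-ins as the scale, the median over all detected genes was -0.10 where TMM gave 0.01. All 10 genes were then lower in replicate 2, with a median of -0.12. In 8 of 10 the counting interval left out equal levels, beside 5535 of 12838 detected genes. Relative to the median detected gene, the median of the 10 was -0.02. This value is the same with either scale by construction, since a change of scale shifts every log2 ratio alike. Among the companion genes 2 passed 1.5-fold, both higher in replicate 2. Angpt1, which encodes a mural cell ligand for the endothelial receptor TIE2, read 4.54 and 6.97 TPM, a 1.56-fold ratio of scaled counts. Nppa, the atrial natriuretic peptide gene of cardiomyocytes, read 247 and 463 TPM, a 1.89-fold ratio.

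**Figure D4:**
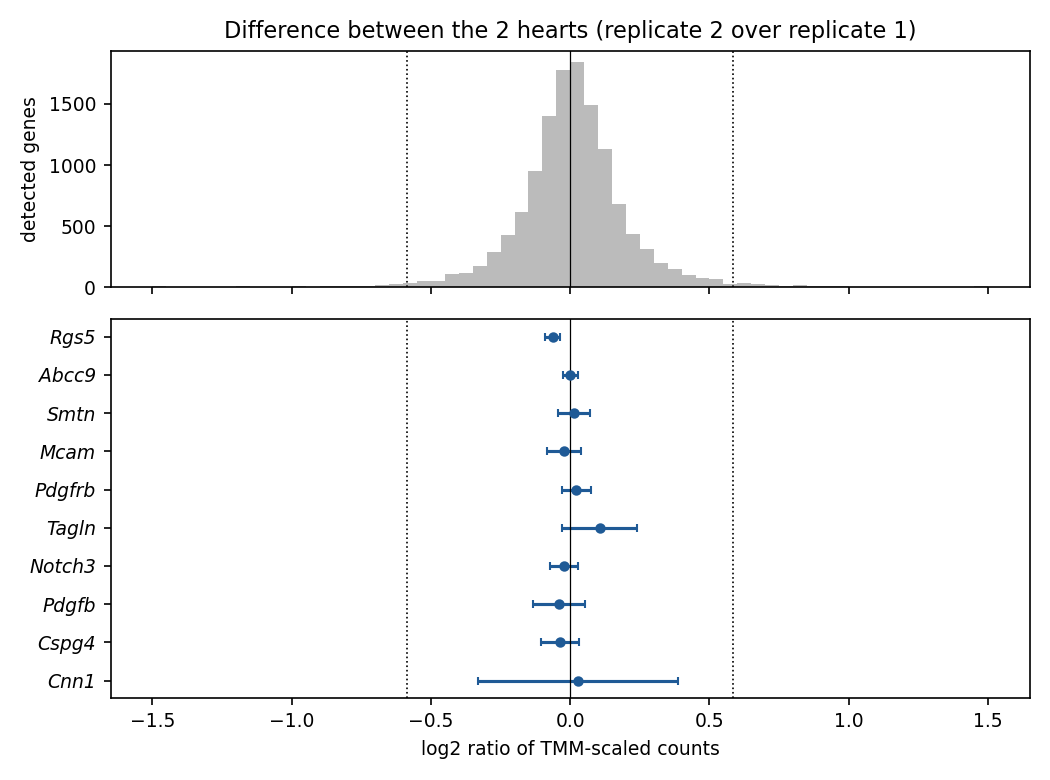
Upper panel, histogram of log2 ratios between hearts for 12838 detected genes (ratios past 1.5 are counted in the end bins); lower panel, the 10 genes as points with 95% counting intervals. Dotted lines mark 1.5-fold, which none of the 10 reached, and with this TMM scaling the Rgs5 interval alone leaves out 0; with ERCC scaling all 10 points would lie left of 0.

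The 10 genes have 45 annotated transcripts, and the leading transcript of each gene was the same in both libraries and by both methods in 10 of 10. A single transcript dominated Pdgfrb (Pdgfrb-201, 99.7% of the gene in the RSEM-type table, mean of 2 libraries), Notch3 (Notch3-201, 98.8%), Rgs5 (Rgs5-201, 96.9%) and Pdgfb (Pdgfb-201, 88.5%). The methods differed for Tagln, where Tagln-201 held 58.7% by the first and 99.3% by the second. The difference lies in Tagln-202, a 369-base transcript with an incomplete annotated end, which took 41.5% and 40.3% of the Tagln level from 102 expected counts in each library in the RSEM-type table and 0 in the kallisto-type table. For Cspg4, transcripts annotated as retained introns took 37.8% and 34.0% by the first method and 8.83% and 9.72% by the second. In Cnn1 the leader by share of TPM was Cnn1-205, whose annotation is incomplete, with 41.6% by the first method and 54.4% by the second. Its 868 bases held 36.04 and 35.85 expected counts in the RSEM-type table. The full-length Cnn1-201, of 2381 bases, held more counts there, 91.49 and 73.87.

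The alternative forms shown above were grouped after the transcript values had been seen, so their shares are descriptions. For Abcc9 the downstream ending (Abcc9-203, SUR2B) held 51.8% and 51.0% of the gene and the 4 transcripts with the upstream ending (SUR2A) 43.3% and 45.0% in the RSEM-type table. The kallisto-type table gave 43.3% and 43.4% for the downstream and 46.9% and 47.8% for the upstream ending. The short transcript Abcc9-205, of 5 exons, held 4.90% and 4.00% by the first method and 9.83% and 8.83% by the second. Both endings were thus present at similar levels in both hearts, and which was higher depended on the method.

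For Smtn the internal start (Smtn-201, 436 residues) held 50.1% and 51.0% of the gene, and the 8 transcripts of the distal start 36.1% and 34.9%, a ratio of 1.39 and 1.46. By the second method the ratio was 1.28 and 1.33, so the internal start was the higher in both hearts by both methods. A further transcript, Smtn-206, belongs to neither start and held 13.9% ± 0.184. For Mcam the form with the 118-base exon held 61.8% and 62.7% and the form without it 22.0% and 16.8%, a ratio of 2.81 and 3.73. The kallisto-type table gave a ratio of 5.08 and 6.79, the same order with a wider gap. Neither form includes the 4 remaining Mcam transcripts, which held 16.2% and 20.4% in the RSEM-type table and 30.3% and 31.5% in the kallisto-type table. In the latter they exceeded the form without the exon, at 11.5% and 8.80%, so the ratio covers only part of the gene.

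**Figure D5:**
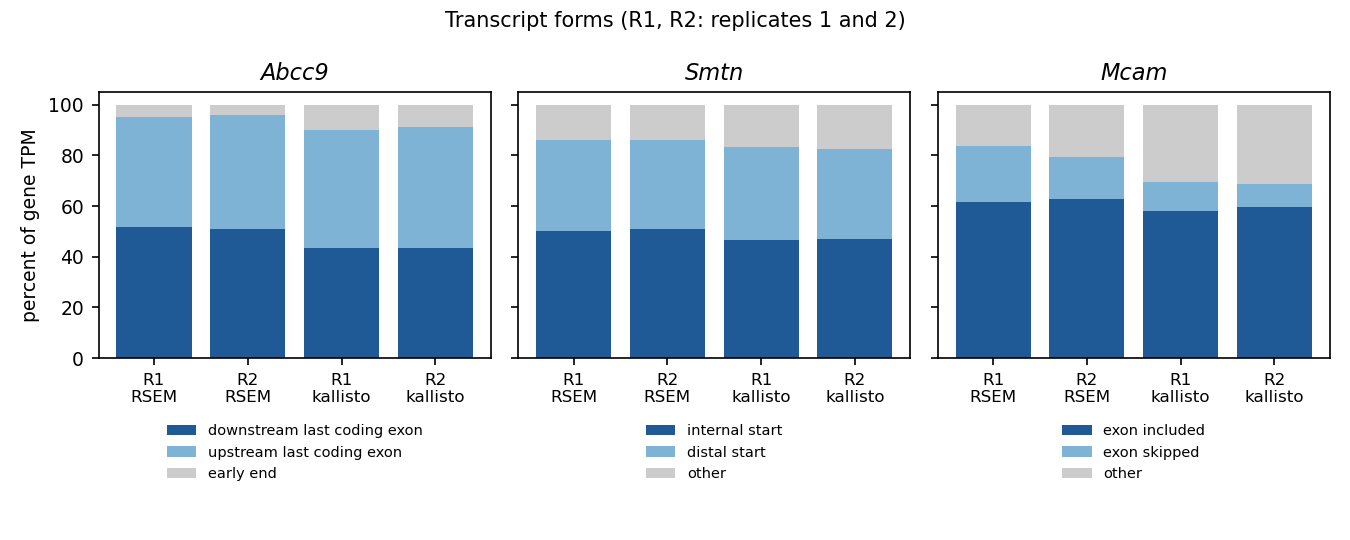
Percent of gene TPM in each transcript form of Abcc9, Smtn and Mcam, for replicates 1 and 2 by the RSEM-type and kallisto-type tables (stacked bars, summing to 100). The hearts differ less than the methods for Abcc9, where the 2 endings trade places between methods, while the internal start of Smtn and the exon-bearing form of Mcam lead in all bars.

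By position, 4 of the 10 genes (Mcam, Tagln, Cspg4 and Cnn1) lie on chromosome 9, which holds 5.49% of annotated protein-coding genes (1210 of 22028). The genes were picked by function, and nothing was tested on their position. Several overlap another annotated gene on the other strand, and whether counting used strand is not given in the sources used here. Tagln overlaps Pcsk7 over 108 bases (10.96 and 8.41 TPM) and the antisense gene Gm48529 (0.790 and 0.820 TPM). Notch3 overlaps Gm17276 (0.750 and 0.440 TPM) and Mcam overlaps Gm10687 over 17 bases (0.820 and 0.730 TPM). The genes overlapping Abcc9, Pdgfb and Smtn read 0.0200 TPM or less. All 10 genes had whole-number expected counts in the gene table, within 0.005 counts, so that table shows no reads divided between them and other genes. The estimated counts of the kallisto-type table were not checked in this way.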

How the data were processed

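Total RNA libraries of 2 hearts, 1 per animal, formed 1 group. The authors deposited, per library, a gene table and a transcript table of expected counts (reads shared between features are divided), TPM and FPKM, with the percent of gene TPM per transcript, and a second transcript table of estimated counts and TPM, per the file headers. Assembly mm10 and GENCODE M21 are named in text deposited with each library. Column headers are those of RSEM and kallisto; tools, versions and strand setting: not given in the sources used here. Parental alleles were not told apart. Deposited entries without a gene name (26248) held 3.84 and 2.92 counts and stayed out of tests.

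Transcript values were joined to genes by identifier. Expected counts were rounded and scaled with TMM (edgeR 4.0.16, R 4.3.3; Python 3.11.15, scipy 1.17.1). Ratios between hearts used a prior count of 0.5 with exact conditional binomial (Clopper-Pearson) 95% intervals, which cover counting error only. Pairs used TPM + 0.1. No p-value was computed, since each heart is 1 library. The ratio code was tested on simulated data. DESeq2 1.42.0 size factors, spike-in and total scaling, kallisto-type values, other pseudocounts, FPKM and leaving out a replicate were alternatives.

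Named are the 10 genes, the 3 with the highest mean TPM in each companion list, genes of the pairs, and listed genes past 1.5-fold, except 1 gene that is not reported here; overlapping genes and transcripts were named after their values were seen. The members and lists were chosen with earlier results of these data known. Sequences are GENCODE M21 transcripts. Protein sequences and promoters were not used here.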

Additional observations from a re-analysis of the deposited data

How the results depend on the processing

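The median level of the 10 genes, 32.6 TPM as a mean of both libraries, was 36.1 TPM in the kallisto-type table, 77.0 TPM when rescaled over nuclear protein-coding genes and 25.2 in FPKM, and ran from 32.2 to 33.1 with either replicate left out. With ERCC scaling 8 of 10 counting intervals left out equal levels, against 1 with TMM. Among 12838 detected genes 5535 did so with ERCC scaling and 3977 with TMM. Without a filter on low values 7941 genes passed 1.5-fold between hearts, against 328 among detected genes; more genes with few counts are tested then. No gene of the 10 passed 1.5-fold under DESeq2, ERCC, total or kallisto-type scaling. Leaving out the filter could not change this, since all 10 pass it. The 14 and 6 pair directions held with kallisto-type TPM. Pseudocounts of 0.01 and 1 cannot change the sign of a ratio, so they could not alter these directions. Nor could either replicate alone, since each direction already required both replicates. Depth limits Cnn1 most, at 131 counts in replicate 2. No paired analysis was possible because there is a single group.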
